A study of Mus musculus
Rattus norvegicus and Mus musculus with 6 samples.

Results

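Antioxidant and detoxification enzymes of hematopoietic SC were compared between cells cultured with and without cardiomyocytes. The families were taken by gene symbol: glutathione transferases, glutathione peroxidases, peroxiredoxins with sulfiredoxin, thioredoxins and glutaredoxins, superoxide dismutases, catalase, the enzymes of glutathione synthesis, quinone and heme enzymes, metallothioneins, ferritins, NADPH oxidase subunits, aldehyde dehydrogenases, aldo-keto reductases and cytochrome P450 enzymes. A probe has a gene name here only where its identifier holds a mouse gene ID, which gave 8102 genes, and 78 of these belonged to the families. They were read by 101 probes, and a gene with several probes is given by its brightest one over all 6 arrays. Of the 31 enzymes and subunits that were to be described whatever their values, 14 could be named. Nqo1, Hmox1, Gclc, Gsr, Txnrd1, Cat and Sod2 are among the other 17, which were not analysed here.

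All arrays carried RNA of cells isolated as lin-/c-kit+ from the tibia and femur of C57Bl/6 mice labelled male. The cells had been labelled with the dye CFDA and put through consecutive cell sorts after 48 h of culture. On 3 arrays the cells came from coculture with neonatal rat ventricular cardiomyocytes (NRVCM) of Wistar rats labelled female, and on 3 arrays from monoculture without NRVCM. The paper counts 3 coculture and 3 monoculture experiments and calls them independent. The methods give a higher number of SC per well for monoculture than for coculture, so that SC density and contact with NRVCM cannot be told apart. The arrays carry mouse probes and read rat RNA only where it cross-hybridizes. The age of the mice was not given in the sources used here.

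These families keep reactive oxygen and electrophiles in check. Glutathione is made from cysteine in steps that start with glutamate-cysteine ligase, and it is used by peroxidases to reduce peroxides and by transferases to tag electrophiles for export. Peroxiredoxins reduce hydrogen peroxide, are recycled by thioredoxin and, once overoxidized, are repaired by sulfiredoxin. The transcription factor NRF2 is known to control many of these genes, while phagocytes also make superoxide on purpose with the NADPH oxidase.

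The deposited values are log2 signals that run from 5.81 to 14.85 and were normalized by the authors to the same distribution on every array. As a limit of background, each array was given its highest signal among 22 reporter and vector probes, which was 6.57 to 6.71. Of the 78 genes, 39 were above this limit on all 6 arrays, 11 on some of them and 28 on none. Of 4 Y-linked genes, Eif2s3y had a log2 signal of 8.93 on coculture replicate 2 and of 6.23 to 6.33 on the other 5 arrays, and Kdm5d had 6.94 there and 6.15 to 6.31 on the others. These values go against the label of those 5 arrays, whereas Uty and Ddx3y were at background on all 6 arrays, coculture replicate 2 included. None of 7 stem and progenitor markers, Kit among them, could be named, so the labelled cell type was not checked by these markers. The methods name CFDA and light scatter for the sort after coculture, and do not name c-kit there. On all 6 arrays, the promyelocyte marker Mpo had log2 signals of 14.28 to 14.66 and the macrophage marker Lyz2 of 14.38 to 14.68. Of the same macrophage list, Itgam had 6.65 to 7.46 and Msr1 was at background. Monoculture replicate 3 gave the highest value of its group for 27 of the 39 genes above background, and for 48.7% of all named genes above background.

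Of the 78 genes, 3 were higher and 5 were lower in cocultured SC, where a call needs both an adjusted p under 0.05 and a change over 1.5-fold. The genes that fell were Srxn1, Cyp4v3, Gclm, Prdx2 and Akr1a1, and those that rose were Txndc5, Gstm2 and Glrx5. Of all named genes, 2.97% were called higher and 2.81% lower, together 5.79%, and of all probes 3.65% were called. The families' counts of 3 and 5 among 78 genes are to be read against these shares. The median log2 difference over the 78 genes was -0.014, beside 0.0037 over all named genes. The 3 coculture arrays did not overlap the 3 monoculture arrays for 26 of the 78 genes, against 28.2% of all named genes. At an adjusted p under 0.05 with no limit on the fold, 11 genes passed, 3 higher and 8 lower, and 10.0% of all named genes did. At an unadjusted p under 0.05, 13.6% of all named genes were higher and 11.9% lower, and 51.5% had a difference above 0. Of the 78 genes, 35 had a difference above 0, and 22 had an unadjusted p under 0.05 in either direction. Without coculture replicate 2, the array with the signals of Eif2s3y and Kdm5d, 1 gene was called higher and 6 lower.

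**Figure D1:**
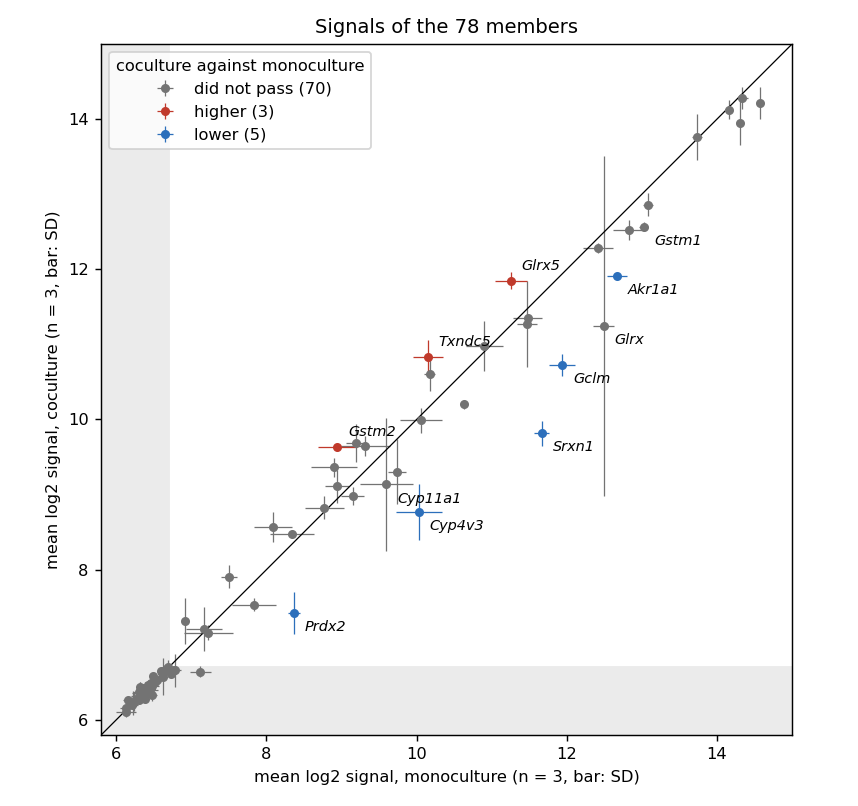
Mean log2 signal in coculture (vertical axis) against monoculture (horizontal axis) for the 78 genes, with bars for the SD of 3 arrays. Grey bands mark signals up to the highest background limit of 6.71. Srxn1, Gclm, Akr1a1, Prdx2 and Cyp4v3 lie below the diagonal of equal signals, Glrx5, Txndc5 and Gstm2 above it, and Glrx has by far the longest vertical bar.

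Sulfiredoxin, the enzyme that repairs overoxidized peroxiredoxins, had the largest difference of all these genes, and it was lower in coculture. Srxn1 had log2 signals of 9.99, 9.67 and 9.79 in coculture and of 11.70, 11.55 and 11.74 in monoculture. The groups were far apart, while the arrays within each group lay close together (SD of 0.16 in coculture and of 0.10 in monoculture, 3 arrays each). The log2 difference was -1.85 (standard error 0.09, adjusted p = 0.00068), a 3.61-fold lower signal in coculture. The other two Srxn1 probes fell too, by 1.51 (adjusted p = 0.0022) and by 1.21 (adjusted p = 0.011). Srxn1 kept its call in each of 13 alternative settings, with an adjusted p of 0.00033 to 0.012.

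Of the peroxiredoxins, Prdx2 passed the test, and Prdx1, Prdx5, Prdx6 and Prdx6b did not. Sulfiredoxin is known to act on the class that holds Prdx1 and Prdx2, and not on Prdx5 or Prdx6. Prdx2, a cytosolic peroxiredoxin, had log2 signals of 7.47, 7.67 and 7.11 in coculture and of 8.31, 8.33 and 8.46 in monoculture. All coculture arrays were below all monoculture arrays, and the log2 difference was -0.95 (standard error 0.14, adjusted p = 0.014). This call was lost without coculture replicate 1 (adjusted p = 0.051) or monoculture replicate 1 (adjusted p = 0.053). Prdx1, a further cytosolic member of the family, had signals of 14.25, 13.91 and 13.67 in coculture and of 14.27, 14.36 and 14.28 in monoculture, so that its groups lay next to each other. Its log2 difference was -0.36, with a 95% interval from -0.69 to -0.02 and an adjusted p of 0.24. Prdx5, which is found in mitochondria and peroxisomes, had a difference of -0.03 with an interval from -0.20 to 0.13, which does not reach a 1.5-fold change in either direction. Its signals of 13.98 to 14.22 lie near the upper end of the scale. Prdx6, a peroxiredoxin that uses glutathione, had 0.06 with an interval from -0.28 to 0.40. Prdx6b, which is closely related to Prdx6 in sequence, gave signals of 6.53 to 6.69 at the level of background.

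Glutathione synthesis was represented by a pair of genes, of which 1 fell. Gclm encodes the modifier subunit of glutamate-cysteine ligase, the first and rate-limiting step. Its log2 signals were 10.89, 10.62 and 10.65 in coculture and 12.06, 11.74 and 12.01 in monoculture, with no overlap. The log2 difference was -1.21 (standard error 0.11, adjusted p = 0.0035), and Gclm kept its call in each of the 13 settings (adjusted p of 0.0019 to 0.018). Gss, the synthetase of the next step, had signals of 7.44 to 7.60 in coculture and of 7.61 to 8.16 in monoculture, with a log2 difference of -0.30 that did not pass (adjusted p = 0.34). The highest Gss coculture array and the lowest monoculture array were almost equal. Gpx2, the only glutathione peroxidase that could be named, was close to background, with signals of 6.52 to 6.92 on the 6 arrays.

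**Figure D2:**
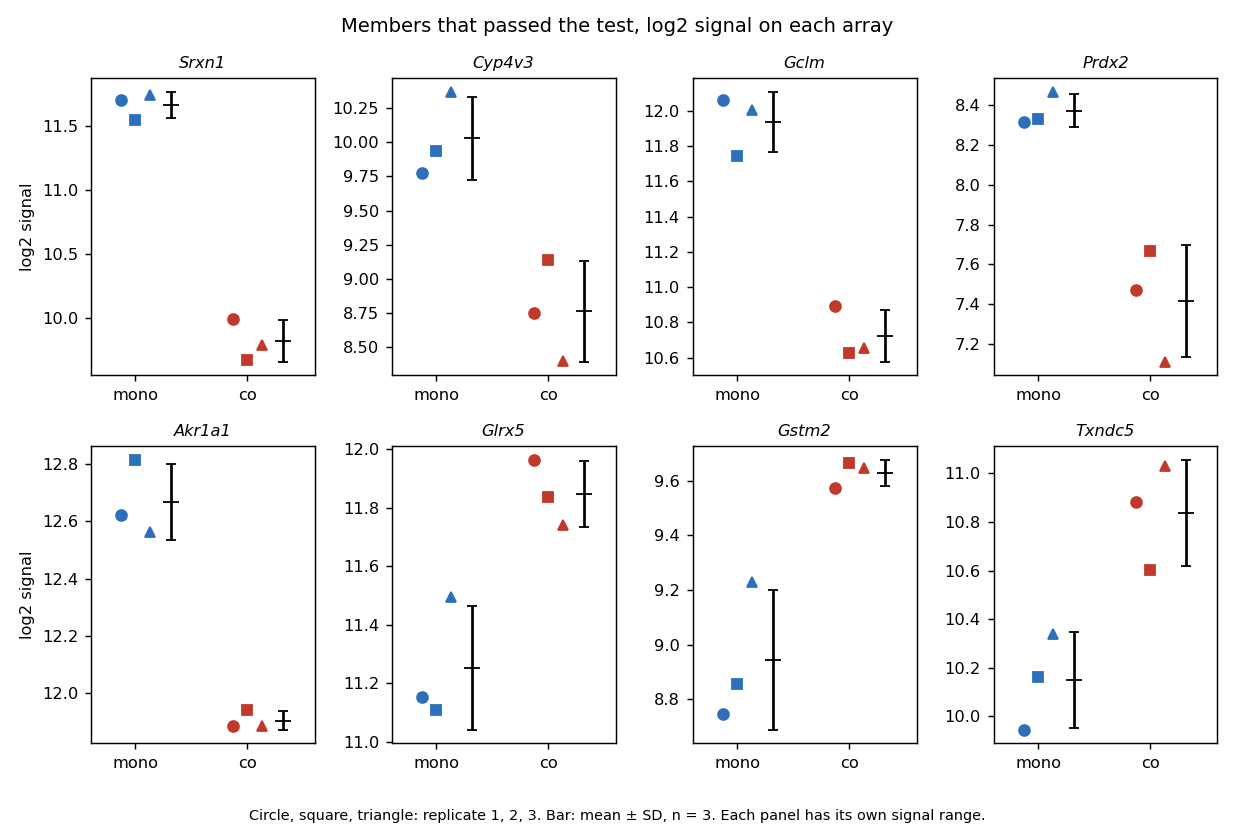
Log2 signal on each array for the 8 genes that passed the test, in monoculture (blue) and coculture (red), with the mean and SD of 3 arrays in black. Every panel has its own signal range, and in none of them do the groups overlap. The gap is widest for Srxn1, with monoculture arrays at 11.55 to 11.74 and coculture arrays at 9.67 to 9.99.

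Of 9 glutathione transferases, 1 rose and none fell by more than 1.5-fold, and Gstm2 and Gstm1 of the mu class differed in opposite directions. At an unadjusted p under 0.05, 2 were higher and 1 was lower. Over all named genes, 2.97% were called higher and 2.81% lower, and 13.6% were higher and 11.9% lower at that p. Gstm2 had log2 signals of 9.58, 9.67 and 9.65 in coculture and of 8.74, 8.85 and 9.23 in monoculture. The coculture arrays were close together and all above the monoculture arrays, of which replicate 3 was the highest. The log2 difference was 0.69 (standard error 0.12, adjusted p = 0.027). The dimmer Gstm2 probe had 0.33 (adjusted p = 0.030), under the 1.5-fold limit. Gstm2 lost its call without coculture replicate 1, 2 or 3 (adjusted p = 0.082, 0.069 and 0.078) and without monoculture replicate 1 or 2 (adjusted p = 0.078 and 0.081). With the mean of its probes, the difference of 0.51 was under the 1.5-fold limit.

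Gstm1, in contrast, had log2 signals of 12.56, 12.51 and 12.63 in coculture and of 13.08, 13.02 and 12.97 in monoculture. The groups did not overlap, and the log2 difference was -0.45 (standard error 0.05, adjusted p = 0.0074), which is a change of less than 1.5-fold. The other Gstm1 probe was near background and had a difference of 0.12 (adjusted p = 0.66). On the same array, the log2 ratio of Gstm2 to Gstm1 had a mean of -2.94 in coculture (SD 0.08, 3 arrays) and of -4.08 in monoculture (SD 0.31, 3 arrays). This difference of 1.14 had a two-sided p of 0.10 in an exact permutation test, the smallest that 3 against 3 arrays allow. The pair was chosen after its values were seen. Each gene already separated the groups, in opposite directions, so this p was fixed in advance and adds nothing to the values of the 2 genes. Mu class genes are alike in sequence, so part of a signal may come from a neighbour.

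The pi class genes Gstp1 and Gstp2, which are nearly identical copies, had log2 signals of 11.30 to 11.67 and of 12.21 to 12.61 over the 6 arrays. Their log2 differences were -0.12 (95% interval from -0.35 to 0.11) and -0.13 (from -0.37 to 0.12). Gstt2 of the theta class, named after its values were seen, had 9.45 to 9.95 in coculture and 9.09 to 9.34 in monoculture. Its groups did not overlap, yet the log2 difference of 0.49 did not pass (adjusted p = 0.097). Mgst3, a microsomal enzyme, had a difference of 0.17 (adjusted p = 0.59). The probes of Gsta1 and Gstm3 were at background on all 6 arrays, and Gsta2 was near it with signals of 6.58 to 6.73.

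Of the thioredoxin and glutaredoxin families, Txndc5 and Glrx5 were higher in coculture. Of 9 genes, 8 had a difference above 0, beside 51.5% of all named genes. Of the 9, 2 passed as higher and none as lower, beside 2.97% and 2.81% of all named genes. At an unadjusted p under 0.05, 5 were higher and none lower, beside 13.6% and 11.9% of all named genes. Their median log2 difference was 0.41, beside 0.0037 over all named genes. Txndc5, a disulfide isomerase of the endoplasmic reticulum with thioredoxin domains, had log2 signals of 10.88, 10.60 and 11.03 in coculture and of 9.94, 10.16 and 10.34 in monoculture. The groups did not overlap, and the difference was 0.69 (standard error 0.14, adjusted p = 0.038). Glrx5, the mitochondrial glutaredoxin of iron-sulfur cluster assembly, had 11.96, 11.84 and 11.74 in coculture and 11.15, 11.11 and 11.49 in monoculture. Its difference was 0.60 (standard error 0.11, adjusted p = 0.033), a 1.51-fold change that lies at the limit used.

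Both calls were lost with several of the arrays left out, while the differences stayed near 0.69 and 0.60. Txndc5 lost its call without coculture replicate 1 or 3 (adjusted p = 0.127 and 0.094) and without monoculture replicate 1 or 2 (adjusted p = 0.114 and 0.098), at log2 differences of 0.59 to 0.70. With all arrays, it lost its call under the intensity trend (adjusted p = 0.054). Glrx5 lost its call without coculture replicate 1, 2 or 3 (adjusted p = 0.112, 0.076 and 0.060) and without monoculture replicate 1 or 2 (adjusted p = 0.120 and 0.087), at log2 differences of 0.52 to 0.65. It also fell under the 1.5-fold limit with median centring (0.58) and cyclic loess (0.57).

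The cytosolic glutaredoxin Glrx, which removes glutathione from proteins, had one array far from all the others. Its log2 signals were 12.51, 12.59 and 8.63 in coculture and 12.34, 12.63 and 12.50 in monoculture. Coculture replicate 3 was thus more than 2 log2 units below each of the other 5 arrays, which lay between 12.34 and 12.63. With all arrays, the log2 difference was -1.25, with a 95% interval from -3.73 to 1.24 (adjusted p = 0.64), and without coculture replicate 3 it was 0.06 (adjusted p = 0.84). Over the whole array, 7 probes were lower on coculture replicate 3 than on every other array by more than 2 log2 units. Glrx was the only one of the 78 genes among them. Only 1 Glrx probe could be named, so a second probe was not compared.

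**Figure D3:**
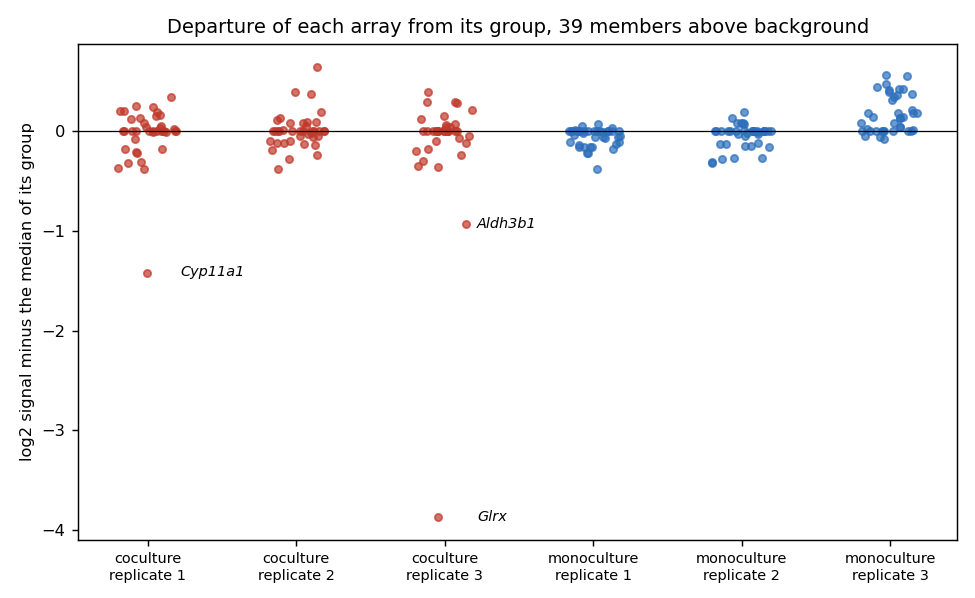
Log2 signal minus the median of its group (vertical axis) on each of the 6 arrays, one point for each of the 39 genes above background on all arrays. Most points lie close to 0, and Glrx on coculture replicate 3, Cyp11a1 on coculture replicate 1 and Aldh3b1 on coculture replicate 3 lie far below it. Many points of monoculture replicate 3 lie above 0.

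The remaining thioredoxin-related genes were named after their values were seen. Txnl1, a thioredoxin-like partner of the proteasome, had log2 signals of 7.74 to 8.05 in coculture and of 7.41 to 7.61 in monoculture, with a difference of 0.41 (adjusted p = 0.056). Txndc12, of the endoplasmic reticulum, had a difference of 0.47 (adjusted p = 0.17). Txnl4a, a thioredoxin-like part of the spliceosome, had 0.43 (adjusted p = 0.097) on its brightest probe and -0.22 (adjusted p = 0.060) on the other, so its probes pointed in opposite directions. The glutaredoxins Glrx2 and Glrx3 had 0.33 and 0.13 with overlapping groups (adjusted p = 0.37 and 0.74). Txndc15 was at background on all 6 arrays.

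Superoxide dismutase, ferritins, metallothionein and a quinone reductase were above background on all arrays, and none of these 5 genes passed the test. At an unadjusted p under 0.05, Sod1 and Fth1 were lower and none was higher, beside 11.9% lower and 13.6% higher over all named genes. Sod1, the copper and zinc dismutase of the cytosol, had log2 signals of 12.66, 12.40 and 12.52 in coculture and of 12.90, 12.59 and 12.98 in monoculture. The groups overlapped, and the difference of -0.30 (95% interval from -0.58 to -0.02) did not pass (adjusted p = 0.24). Fth1, the heavy chain of the iron store ferritin, had 14.27, 14.39 and 13.97 in coculture and 14.54, 14.58 and 14.59 in monoculture. Its coculture arrays were all lower, but the difference of -0.36 did not pass (adjusted p = 0.12). Ftl1, the light chain, had a difference of -0.06 with an interval from -0.26 to 0.15. Mt1, a metal-binding metallothionein, had 0.03 with an interval from -0.32 to 0.38. Signals of Fth1, Ftl1, Mt1, Prdx1 and Prdx5 lie near the upper end of the scale, as do those of Pgd, Tkt, Lyz2, Elane, Mpo and S100a9. Processed pseudogenes of genes such as Fth1, Ftl1 and Prdx1 may share their probes. Nqo2, a quinone reductase, had 8.88 to 9.12 in coculture and 8.99 to 9.30 in monoculture, with a difference of -0.16 (adjusted p = 0.47).

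Of the NADPH oxidase, which makes superoxide in phagocytes, Cybb encodes the catalytic subunit. Its probe was near background with log2 signals of 6.59 to 6.88 on the 6 arrays, so its difference of -0.11 (adjusted p = 0.46) says little about the gene.

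Of 5 aldo-keto reductases, which reduce aldehydes and ketones to alcohols, 1 fell and none rose, beside 2.81% called lower over all named genes. At an unadjusted p under 0.05, 2 were lower and none was higher, beside 11.9% lower and 13.6% higher over all named genes. Akr1a1, an aldehyde reductase that in mice also serves the synthesis of ascorbate, had log2 signals of 11.88, 11.94 and 11.89 in coculture and of 12.62, 12.81 and 12.56 in monoculture. The coculture arrays were close to each other and all below the monoculture arrays. The difference was -0.76 (standard error 0.07, adjusted p = 0.0038), and the call was kept in each of the 13 settings (adjusted p of 0.0034 to 0.021). Akr1b10, named after its values were seen, had 10.16, 10.27 and 10.17 in coculture and 10.58, 10.63 and 10.67 in monoculture. It differed by -0.42 (adjusted p = 0.0073), a change of 1.34-fold, and by -0.36 (adjusted p = 0.15) on its other probe. Akr1b3, the aldose reductase, had -0.07 with overlapping groups (95% interval from -0.44 to 0.30). Akr1e1 had -0.07 as well (adjusted p = 0.90), and Akr1c20 was at background on all 6 arrays.

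None of 4 aldehyde dehydrogenases was called, and at an unadjusted p under 0.05 none was higher and 1 was lower. Over all named genes, 5.79% were called, and at that p 13.6% were higher and 11.9% lower. Aldh1a1, which oxidizes retinaldehyde and is used as a marker of stem and progenitor cells, had log2 signals of 6.66, 6.56 and 6.70 in coculture, near background, and of 7.07, 7.02 and 7.28 in monoculture. The groups did not overlap, and the difference of -0.48 had an adjusted p of 0.021 at a change of 1.40-fold. Without coculture replicate 1 or monoculture replicate 1, Aldh1a1 had an adjusted p of 0.070 or 0.065. Aldh3b1, which acts on aldehydes of lipids, had 11.55, 11.64 and 10.62 in coculture and 11.47, 11.34 and 11.60 in monoculture. Coculture replicate 3 was again the low array, and the difference of -0.20 (adjusted p = 0.80) became 0.13 (adjusted p = 0.58) without it. Aldh3b3 and Aldh8a1 were at background on all 6 arrays.

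**Figure D4:**
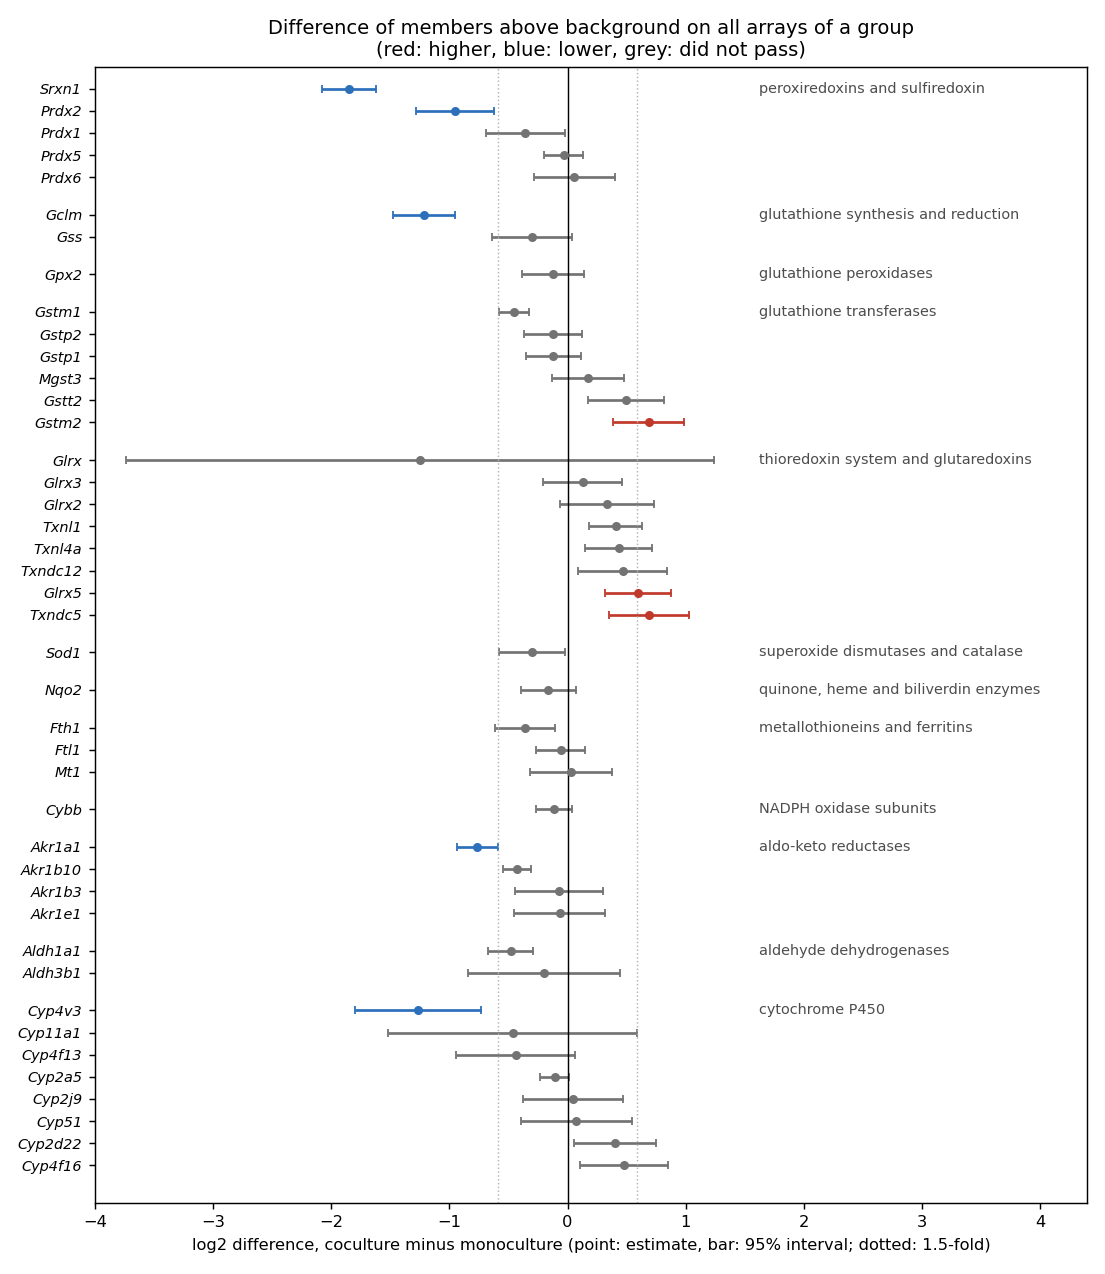
Log2 difference of coculture minus monoculture (horizontal axis) with its 95% interval for genes above background on all arrays of at least 1 group, with 1 such gene left out, ordered by family. Blue and red mark the 5 lower and 3 higher genes, and dotted lines mark 1.5-fold. Genes of the thioredoxin and glutaredoxin families lie mostly to the right of 0. The aldo-keto reductases lie to the left, Akr1b3 and Akr1e1 close to 0, and the interval of Glrx runs from -3.73 to 1.24.

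Cytochrome P450 genes made up 35 of the 78 genes, and most of them were at or near background. These enzymes oxidize steroids, fatty acids and foreign compounds, and many of them are known from liver. No array showed 22 of the 35 above background, and a further 6 were above it on some arrays only. Over these 28 genes, log2 signals ran from 6.01 to 6.85 and differences from -0.15 to 0.11. Of 21 genes with symbols that start with Cyp2, 2 were above background on all arrays. These 21 take in Cyp27b1, which is of family CYP27 and was at background. Of 4 genes of family CYP3, 0 were above background on all arrays. Many of these genes are close copies, and probes for one may read another.

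Of the 7 cytochrome P450 genes above background on all arrays, Cyp4v3 was lower in coculture. Cyp4v3 is the mouse counterpart of a human fatty acid hydroxylase. It had log2 signals of 8.75, 9.14 and 8.40 in coculture and of 9.78, 9.94 and 10.37 in monoculture. The groups were apart, and the difference was -1.26 (standard error 0.22, adjusted p = 0.025), or 2.40-fold. This call was lost without coculture replicate 1 or 3 (adjusted p = 0.088 and 0.052) and without monoculture replicate 1, 2 or 3 (adjusted p = 0.057, 0.064 and 0.053). Cyp51, an enzyme of cholesterol synthesis, had 10.63, 11.00 and 11.30 in coculture and 10.62, 11.09 and 11.00 in monoculture, which overlap widely. Its difference was 0.08, with a 95% interval from -0.39 to 0.54.

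The next genes were named after their values were seen. Cyp11a1, which starts steroid synthesis by cutting the side chain of cholesterol, had log2 signals of 8.12, 9.53 and 9.75 in coculture and of 9.55, 9.27 and 9.97 in monoculture. Coculture replicate 1 was the low array, and the difference of -0.46 did not pass (adjusted p = 0.69). Cyp4f16 was higher on every coculture array, by 0.48 on its brightest probe and by 0.43 on the other, and did not pass (adjusted p = 0.15 and 0.088). Cyp2d22 had 7.01 to 7.61 in coculture and 6.88 to 6.95 in monoculture, with a difference of 0.40 (adjusted p = 0.20). Cyp4f13 had -0.44 (adjusted p = 0.35), but without coculture replicate 2 it passed as lower.

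Genes that act around these enzymes were read from 7 lists of 53 genes, of which 21 could be named. By limma, 4 of the 21 fell and none rose, beside 2.81% called lower and 2.97% called higher over all named genes. At an unadjusted p under 0.05, 5 were lower and 0 higher, beside 11.9% and 13.6% over all named genes. Sqstm1, an autophagy receptor that binds the NRF2 repressor KEAP1, had log2 signals of 10.50, 10.70 and 10.88 in coculture and of 12.59, 12.31 and 12.52 in monoculture. The groups were far apart, with a difference of -1.78 (standard error 0.11, adjusted p = 0.0012). Slc7a11, the cystine transporter that supplies cysteine for glutathione, had 7.94, 6.96 and 7.12 in coculture and 9.41, 9.35 and 9.62 in monoculture, a difference of -2.12 (standard error 0.25, adjusted p = 0.0077). Taldo1, an enzyme of the pentose phosphate pathway, had a difference of -0.64 (adjusted p = 0.0042). These 3 genes kept their calls in each of the 13 settings. Pgd and Tkt, the other genes of that pathway that could be named, did not pass, at -0.04 (adjusted p = 0.93) and 0.05 (adjusted p = 0.78). G6pdx and Pgls of the same list could not be named and were not analysed.

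The fourth gene was Slc11a1, a metal transporter of macrophage phagosomes. It had log2 signals of 12.06, 11.81 and 10.36 in coculture and of 13.75, 13.76 and 14.00 in monoculture, with a difference of -2.43 (standard error 0.43, adjusted p = 0.025). It lost its call without monoculture replicate 1, 2 or 3 (adjusted p = 0.089, 0.068 and 0.071) and with the replicate number as a block (adjusted p = 0.067). Mafg, a partner of NRF2 on DNA, had a difference of -0.41 (adjusted p = 0.047), under the 1.5-fold limit. Bach1, a repressor at the sites of NRF2, had 0.27 with overlapping groups (adjusted p = 0.46). Nfe2l1, a relative of NRF2, had -0.01 with a 95% interval from -0.16 to 0.13. Bach2 and Cul3 of the same list had -0.56 and 0.08 with overlapping groups (adjusted p = 0.43 and 0.76). The genes of NRF2 and KEAP1 themselves could not be named and were not analysed here.

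The macrophage markers Cd68, Gpnmb and Mertk were lower in coculture, as were Srxn1, Gclm, Akr1a1, Prdx2 and Cyp4v3. Of 13 markers, 7 could be named, of which 3 fell and none rose (4 lower and 0 higher at an unadjusted p under 0.05). Over all named genes, 2.81% were called lower and 2.97% higher, and 11.9% were lower and 13.6% higher at that p. The summed linear signal of the 7 markers was 23732 to 28928 in coculture and 54007 to 56797 in monoculture. A linear sum is weighted to the brightest genes, so it does not stand for the list as a whole. Mean log2 signals in coculture and monoculture were 14.47 and 14.60 for Lyz2 and 9.69 and 14.32 for Gpnmb. Gpnmb had a log2 difference of -4.63 (adjusted p = 0.015, and 0.063 without monoculture replicate 1), Cd68 one of -2.06 (adjusted p = 0.0098) and Mertk one of -1.59 (adjusted p = 0.0094). Lyz2 had -0.14 (adjusted p = 0.31), and the scavenger receptor gene Msr1 was at background on all 6 arrays. Among the coculture arrays, Cd68 was lowest on replicate 3 with 10.19 and highest on replicate 2 with 11.30. Prdx2 and Cyp4v3 were lowest on replicate 3, and Srxn1 on replicate 2. Gclm was nearly equal on replicates 2 and 3 (10.62 and 10.65), and Akr1a1 on replicates 1 and 3 (11.88 and 11.89). The part of these markers in the result was not tested, and in bulk RNA fewer cells of a type and less RNA per cell cannot be told apart.

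**Figure D5:**
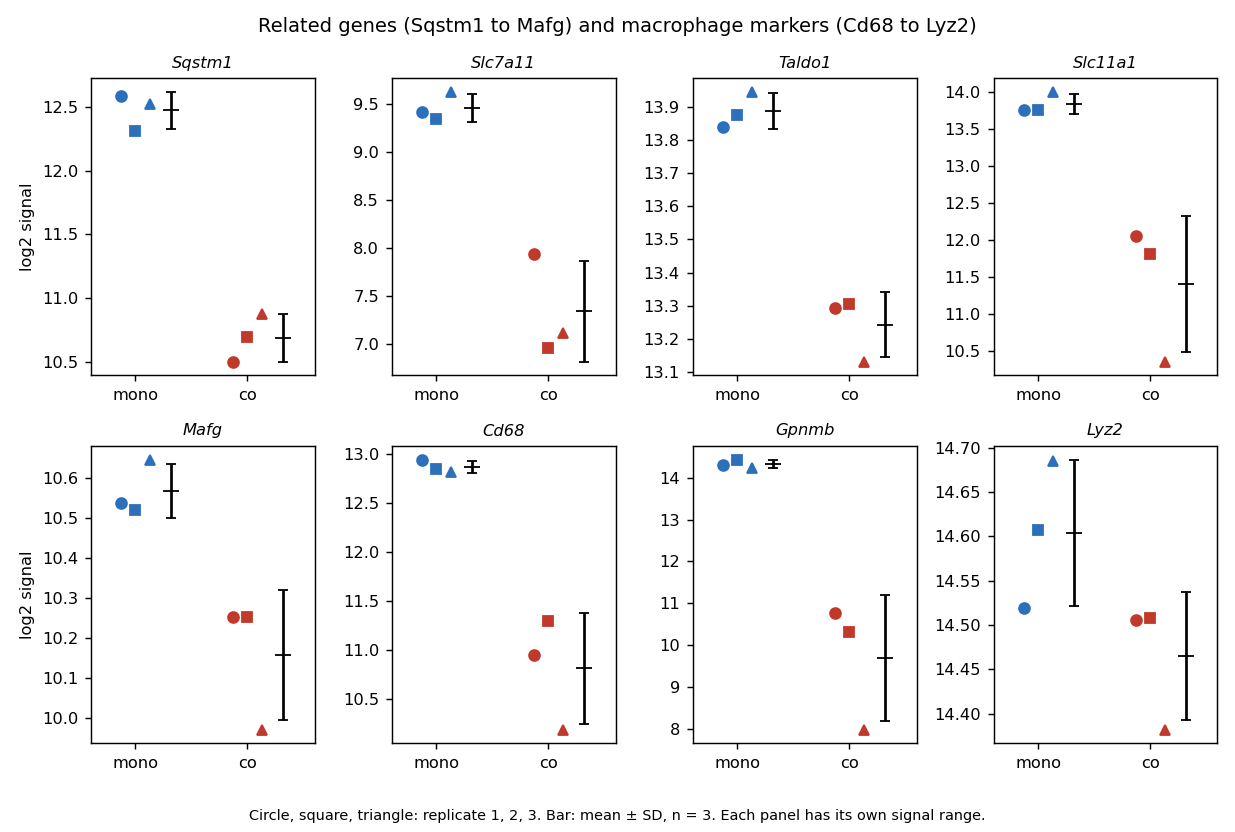
Log2 signal on each array in monoculture (blue) and coculture (red), with the mean and SD of 3 arrays, for 5 genes that act around the enzymes (Sqstm1 to Mafg) and 3 macrophage markers (Cd68 to Lyz2). Every panel has its own signal range. Coculture replicate 3, drawn as a triangle, is the lowest array for Taldo1, Slc11a1, Mafg, Cd68, Gpnmb and Lyz2. It is the highest of the coculture arrays for Sqstm1, and lies between the other coculture arrays for Slc7a11.

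Markers of other cells were read in the same way. Of 10 promyelocyte and granulocyte markers, 4 could be named, and only Elane was called, beside 5.79% called over all named genes. Elane rose by a log2 difference of 0.59 (adjusted p = 0.0080). Its difference was under the 1.5-fold limit without coculture replicate 2 (0.55) or 3 (0.57) and without monoculture replicate 1 (0.56). The same held with cyclic loess (0.56) and median centring (0.58). Mpo had 0.12 (adjusted p = 0.67), Ltf -0.04 (adjusted p = 0.99) and S100a9 -0.002 (adjusted p = 0.995). Ltf varied widely within the groups, with an SD of 0.80 in coculture and of 1.77 in monoculture. Signals of Elane, Mpo and S100a9 lie near the upper end of the scale. The summed linear signal of the 4 was 71515 to 83098 in coculture and 61579 to 74561 in monoculture, so the groups overlapped. By limma, none of 3 named mast cell, 2 erythroid, 5 heart muscle and 4 fibroblast markers was called. At an unadjusted p under 0.05, 2 mast cell markers and 1 erythroid marker were lower and 1 heart muscle marker was higher. Over all named genes, 11.9% were lower and 13.6% higher at that p. All 4 fibroblast markers and 3 of the 5 heart muscle markers, Myh6 and Myh7 among them, were at background on all 6 arrays.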

How the data were processed

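RNA of cells isolated as lin-/c-kit+ was measured on 6 Illumina mouse bead arrays. The authors removed outlier beads, took the mean of a probe's beads and applied what the methods call quartile normalization, and the deposited table holds log2 signals of 46628 probes. A background correction was not given in the sources used here. A further table of signals and detection p-values has 12 columns that name no sample and was not used. Probes were named through the gene ID in their identifier and RefSeq symbols of GRCm38.p6, which named 9796 probes.

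The fit used limma (version 3.58.1, R version 4.3.3) with the group as its only term and Benjamini-Hochberg adjustment over all probes. A call needed an adjusted p under 0.05 and a change over 1.5-fold, without a filter on dim probes. Arrays hold no read depth, and their number limits the precision. The fit was tested on simulated data. The rule for named genes takes all genes called, the brightest probe of each family and a list of 31 core enzymes. Genes that act around the enzymes were to be named only if called. Pgd, Tkt, Mafg, Bach1, Bach2, Nfe2l1 and Cul3 were not called and are named outside this rule. Members and lists were chosen with earlier results of these data known, and the probes for the background limit were picked with values in view. Alternatives were each array left out, a replicate block, cyclic loess, median centring, a filter on dim probes, the mean of a gene's probes, an intensity trend, other thresholds and, chosen after seeing the data, a robust prior and a higher background limit. The main fit did not use the replicate numbers to pair the arrays. The values of 1 gene of the families are not reported here, and it stays in the counts.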

Additional observations from a re-analysis of the deposited data

How the results depend on the processing

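Srxn1, Gclm and Akr1a1 kept their calls in all 13 alternative fits, while Prdx2, Cyp4v3, Gstm2, Txndc5 and Glrx5 each lost theirs in some. No called gene changed sign in these fits. With 1 array left out, 0 to 4 genes were higher and 3 to 6 lower. With the replicate number as a block, 0 were higher and 3 lower. Prdx2, Cyp4v3, Gstm2, Txndc5 and Glrx5 then had an adjusted p of 0.055, 0.088, 0.051, 0.055 and 0.105. Same-numbered arrays of the 2 groups had a correlation of -0.14, -0.13 and -0.12 after the group means were subtracted, and differently numbered arrays of 0.025 to 0.10. Subtracting the mean of 3 arrays ties these values to each other, so they cannot settle whether the numbers pair the arrays. At more than 2-fold, 0 were higher and 3 lower, and the same counts held at an adjusted p under 0.01. With no limit on the fold, 8 were lower and 3 higher. Cyclic loess, median centring, the mean of a gene's probes and the intensity trend each gave 2 higher and 5 lower genes, and the filter on dim probes and the robust prior 3 and 5. The median over the genes was -0.11 with the filter on dim probes, because the filter leaves 43 of the 78 genes. The median was -0.026 to -0.0070 with 1 array left out. With a limit at the probe for zebrafish Alk7 (6.89 to 7.01), 37 genes instead of 39 were above background on all arrays. Signals near background limit what can be said of Cybb, Gpx2, Aldh1a1 and most cytochrome P450 genes.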
